A study of Mus musculus with 6 samples.

Results

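Elastic fibre genes encode the elastin core and the microfibrils that surround it. 10 of them were examined in the atrioventricular canal (AVC) region of embryonic mouse hearts lacking Scleraxis (Scx): Eln, Fbn1, Fbn2, Fbln1, Fbln2, Fbln5, Emilin1, Mfap2, Mfap4 and Mfap5. They were chosen by symbol, as genes of the elastin core, the fibrillin microfibril and the proteins that join them, and all 10 were present among the 18810 genes of the RPKM table. RPKM is the read count of a gene scaled to the length of its exons and to the depth of the library.

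RNA came from AVC regions holding the mitral, tricuspid and aortic valves of C57BL/6 embryos at E15.5, with 3 libraries from Scx-/- embryos and 3 from Scx+/+ littermates. The question of the study was which transcripts differ when Scx, a basic helix-loop-helix transcription factor of tendons and heart valves, is missing from remodelling valves. The deletion was constitutive, not limited to valve cells, and no cell type was sorted from the dissected tissue. Separate embryos are stated as the source of each genotype, but the labels do not name the embryo of each library.

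An elastic fibre is built when soluble elastin is laid down on a scaffold of fibrillin microfibrils, aligned there by fibulins and crosslinked by lysyl oxidases. In heart valves such fibres let the leaflet recoil. Microfibrils also occur without elastin and hold latent TGF-beta complexes in the matrix. Smooth muscle cells and fibroblasts of the great vessels make many of the same proteins, so that the AVC region can hold several sources.

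The libraries held 46429970 to 68571025 reads, a depth recovered from the RPKM and exon lengths. Each value of the 10 genes rested on at least 184 reads, and none was at the fixed fill-in value of 0.0949 RPKM that the table gives to low values. The 10 most abundant genes took 56.9% of the RPKM sum in Scx+/+ replicate 2 and 30.7% to 43.9% in the others. Scx itself was at 33.6, 18.6 and 82.9 RPKM in Scx-/- and 29.5, 58.3 and 26.0 RPKM in Scx+/+ libraries, over all its exons. The deletion removes exon 1, so these values do not check the genotypes. Xist was expressed in replicate 2 of both genotypes and was at the fill-in value in the other 4 libraries. Scx-/- replicate 3 and Scx+/+ replicate 2 stood apart from the other 4 libraries in Hbb-y, an embryonic globin, at 1.16 and 1.99 RPKM against 49.6 to 125.1 RPKM. The paper reports that, before sequencing, expression of the deleted exon was found to be far lower in Scx-/- samples than in controls. That check is not given for each library. In the values used here, the genotype of each library, the 2 with low Hbb-y included, rests on its label. So does every difference between genotypes given here, and whether labels were exchanged was not tested.

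No elastic fibre gene passed the test between genotypes. At an unadjusted p below 0.05 in limma, 0 of 10 were called, against 3.89% of all genes. After Benjamini-Hochberg adjustment 0 of 10 were called, against 0% of all genes, and the adjusted p of the 10 genes was at least 0.967. The genotypes overlapped in all 10, whereas they did not overlap in 9.5% of all genes. The fitted difference was above 0 for 5 genes and below 0 for 5, with a median of 0.01 on the log2 scale against 0.10 for all genes tested. In bulk RNA, fewer cells of a type and less RNA per cell cannot be told apart.

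Eln encodes tropoelastin, the soluble precursor of the elastic core. It was at 16.6, 46.4 and 23.7 RPKM in Scx-/- replicates 1 to 3 and at 23.8, 27.3 and 28.8 RPKM in Scx+/+ replicates 1 to 3. Both the lowest and the highest library were Scx-/-, and the Scx+/+ libraries lay between them. The mean was 28.9 ± 15.6 RPKM in Scx-/- and 26.6 ± 2.60 RPKM in Scx+/+ (SD, n = 3). The log2 fold change was -0.01 (SE 0.33, 95% interval -0.76 to 0.73, limma, adjusted p = 0.999), which allows a level from 0.592 to 1.67 times that of Scx+/+.

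Fbn1 and Fbn2 encode the fibrillins, the large glycoproteins that form the microfibril backbone. Fbn1 was at 17.0, 21.7 and 13.0 RPKM in Scx-/- and at 23.2, 15.2 and 24.6 RPKM in Scx+/+ libraries. The 2 highest values were Scx+/+ replicates 1 and 3, but Scx+/+ replicate 2 lay below 2 of the Scx-/- libraries. Its log2 fold change was -0.28 (SE 0.25, 95% interval -0.85 to 0.29, limma, adjusted p = 0.967), and the mean was 17.2 ± 4.36 RPKM in Scx-/- against 21.0 ± 5.02 RPKM in Scx+/+ (SD, n = 3). Fbn2, the fibrillin known mainly from developing tissues, was at 16.6, 19.3 and 10.6 RPKM in Scx-/- and at 19.7, 11.1 and 20.4 RPKM in Scx+/+. Its order over the libraries was close to that of Fbn1, with Scx-/- replicate 3 and Scx+/+ replicate 2 lowest. Its log2 fold change was -0.13 (SE 0.30, 95% interval -0.81 to 0.54, limma, adjusted p = 0.980).

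When only the libraries numbered 1 and 3 were fitted, 2 against 2, Fbn1 was called lower in Scx-/- at the unadjusted threshold, with a log2 fold change of -0.68. This was 1 of 10 genes, against 9.06% of all genes called in that fit, and the smallest adjusted p of the 10 genes over all fits was 0.532. The fit leaves out both libraries with Xist and keeps Scx-/- replicate 3, but not Scx+/+ replicate 2.

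**Figure D1:**
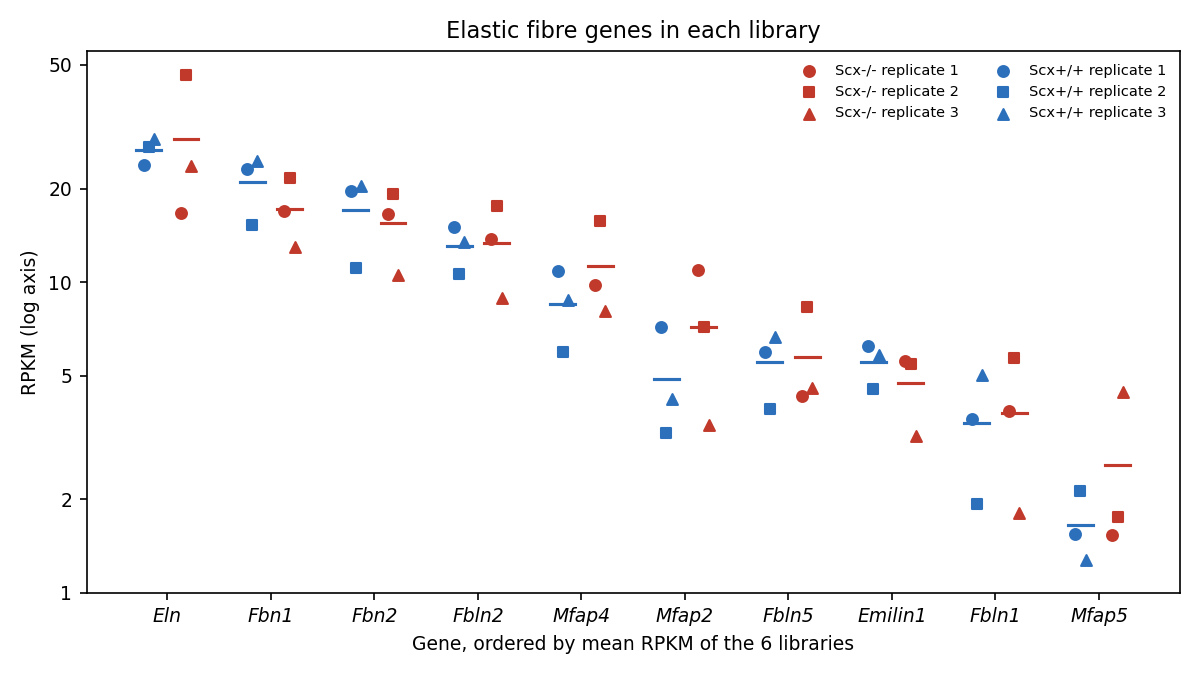
RPKM on a log axis of the 10 elastic fibre genes in each of the 6 libraries, with Scx+/+ in blue on the left and Scx-/- in red on the right of each gene, the shape giving the replicate and the line the mean of 3. The genotypes overlap for every gene, and Eln spans 16.6 to 46.4 RPKM within Scx-/-.

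Mfap2 and Mfap5 encode the microfibril-associated glycoproteins MAGP-1 and MAGP-2, small proteins that bind fibrillin. Mfap2 was at 11.0, 7.15 and 3.46 RPKM in Scx-/- and at 7.20, 3.27 and 4.21 RPKM in Scx+/+ libraries. Scx-/- replicate 1 was the highest, and the libraries of both genotypes came down to nearly the same low level. Its log2 fold change came to 0.48 (SE 0.43, 95% interval -0.50 to 1.45, limma, adjusted p = 0.967). Mfap5 was at 1.54, 1.76 and 4.45 RPKM in Scx-/- and at 1.55, 2.13 and 1.28 RPKM in Scx+/+. A single library, Scx-/- replicate 3, was over 2 times as high as any other. Its log2 fold change of 0.48 (SE 0.43, 95% interval -0.48 to 1.45, limma, adjusted p = 0.967) fell to 0.02 without that library.

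Mfap4, a fibrinogen-related protein that binds elastin and fibrillin, was at 9.82, 15.8 and 8.10 RPKM in Scx-/- and at 10.9, 5.96 and 8.74 RPKM in Scx+/+. The highest library was Scx-/- replicate 2 and the lowest Scx+/+ replicate 2, with the other 4 interleaved. For Mfap4 the log2 fold change was 0.38 (SE 0.30, 95% interval -0.31 to 1.06, limma, adjusted p = 0.967), and its unadjusted p was the smallest of the 10 genes. It was 0.11 without Scx-/- replicate 2, 0.15 without Scx+/+ replicate 2 and -0.13 with the libraries numbered 1 and 3 alone.

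Fibulins bridge elastin and microfibrils. Fbln5, which binds tropoelastin and is needed for elastic fibre assembly, was at 4.29, 8.34 and 4.56 RPKM in Scx-/- and at 5.97, 3.91 and 6.68 RPKM in Scx+/+ libraries. The highest was Scx-/- replicate 2, as for Eln. For Fbln5 the log2 fold change was 0.02 (SE 0.32, 95% interval -0.69 to 0.74, limma, adjusted p = 0.997). Fbln1, a fibulin of elastic fibres and basement membranes, was at 3.84, 5.71 and 1.81 RPKM in Scx-/- and at 3.62, 1.93 and 5.04 RPKM in Scx+/+. Scx-/- replicate 3 and Scx+/+ replicate 2 were the lowest here and lay close together, while the highest was Scx-/- replicate 2. For Fbln1 the log2 fold change was 0.06 (SE 0.46, 95% interval -0.99 to 1.11, limma, adjusted p = 0.996).

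Fbln2, a fibulin of the endocardial cushion matrix, was at 13.7, 17.6 and 8.89 RPKM in Scx-/- and at 15.0, 10.6 and 13.5 RPKM in Scx+/+ libraries. The range of Scx+/+ lay within that of Scx-/-. Its log2 fold change was -0.00 (SE 0.27, 95% interval -0.60 to 0.60, adjusted p of 1.00 in limma). Emilin1, a glycoprotein at the interface of elastin and microfibrils, was at 5.59, 5.43 and 3.21 RPKM in Scx-/- and at 6.22, 4.51 and 5.81 RPKM in Scx+/+. The highest libraries were Scx+/+ replicates 1 and 3, and Scx-/- replicate 3 was the lowest. For Emilin1 the log2 fold change was -0.24 (SE 0.27, 95% interval -0.86 to 0.37, limma, adjusted p = 0.967). The intervals of all 10 genes included 0, and the bounds nearest to 0 were 0.29 above, for Fbn1, and -0.31 below, for Mfap4.

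**Figure D2:**
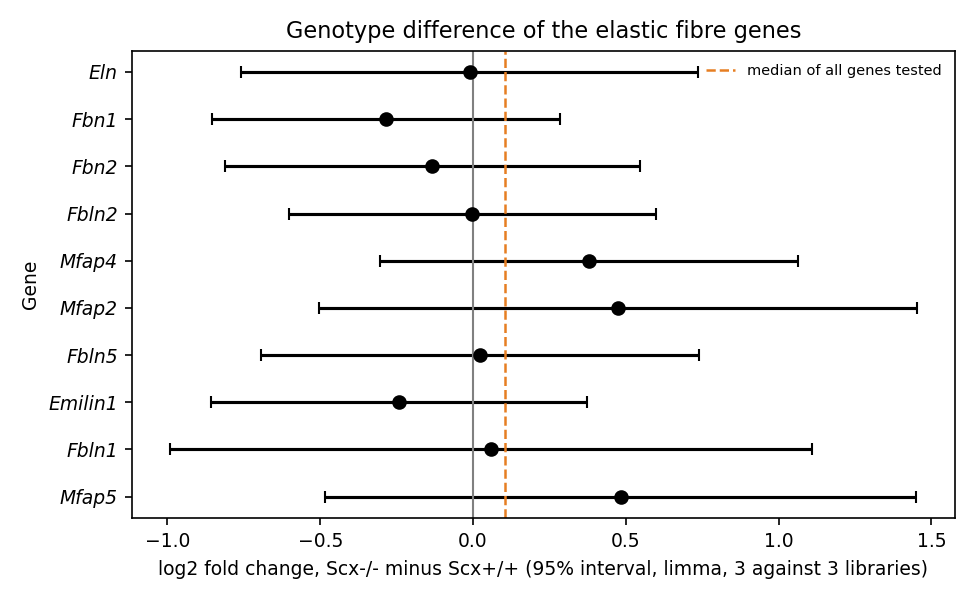
Log2 fold change of each elastic fibre gene, Scx-/- minus Scx+/+, on log2(RPKM + 0.1), with points for the limma estimate from 3 against 3 libraries and bars for its 95% interval. Every bar crosses 0 (grey line), and the dashed line marks the median of all genes, 0.10.

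Libraries of 1 genotype differed widely from each other. Scx-/- replicate 3 and Scx+/+ replicate 2 were the 2 lowest libraries for 7 of the 10 genes, namely Fbn1, Fbn2, Fbln1, Fbln2, Emilin1, Mfap2 and Mfap4. This pair was lowest for 19.5% of the 13827 genes whose mean reached 1 RPKM. The same 2 libraries were the 2 highest for Mfap5, which held for 13.0% of those genes. Eln and Fbln5 had another order, with Scx-/- replicate 1 lowest for Eln and Scx+/+ replicate 2 lowest for Fbln5. The pair was picked after the values were seen, and no test was run on it.

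Summed over the 10 genes, the level was 99.9, 149.1 and 81.7 RPKM in Scx-/- and 117.0, 86.0 and 119.0 RPKM in Scx+/+ libraries. The 2 lowest sums belonged to the same pair of libraries. Both had the highest summed level of 10 cardiomyocyte markers, 24030 and 26440 RPKM against 14690 to 19490 RPKM, a sum made up mostly of Myl2 and Tnnt2, and the low Hbb-y given above. The pair was highest for 4 of those 10 markers and lowest together for 0, while Ttn was lowest in Scx+/+ replicate 2, at 92.4 RPKM. The RPKM sum over all genes was 2295481 in Scx+/+ replicate 2 and 820019 to 1240390 in the others. The marker sums are in RPKM and are not shares of that sum. Of 12 valve mesenchyme markers, 6 were lowest in the pair, namely Sox9, Tbx20, Msx1, Vcan, Col3a1 and Bgn, and 0 were highest there. Their summed level was 585.5 and 484.3 RPKM in the pair against 443.5 to 610.4 RPKM in the other 4, of which Postn alone gave 386.5 and 270.7 RPKM in the pair. The summed level of 7 epicardium markers did not overlap between genotypes, at 32.4 to 40.8 RPKM in Scx-/- and 24.6 to 30.3 RPKM in Scx+/+. It was the only list without overlap among those summed, which also covered smooth muscle, endothelium, erythroid cells, macrophages and cartilage. For single genes, the genotypes did not overlap in 9.5% of all genes. Of the 7, Tcf21 and Aldh1a2 were called higher in Scx-/- at the unadjusted threshold, against 3.89% of all genes called in either direction. Wt1, Tbx18, Upk3b, Msln and Krt19 overlapped between genotypes. Of the 10 cardiomyocyte markers, Ryr2 alone was called, lower in Scx-/-, against the same 3.89%. Of 9 smooth muscle markers, 0 were called, and their sums were 577.7 to 772.4 RPKM in Scx-/- and 535.2 to 641.2 RPKM in Scx+/+. Tagln was at 63.5, 112.0 and 60.25 RPKM in Scx-/- and 53.1, 47.8 and 56.7 RPKM in Scx+/+, without overlap. Myocd did not overlap either, but was lower in Scx-/-, and the other smooth muscle markers overlapped. Whether these marker differences reflect tissue makeup, and their part in the levels of the elastic fibre genes, was not tested. Each of the 10 genes ranged over the 6 libraries by more than the 0.82 log2 units that was the median range of those 13827 genes.

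Without both libraries of the pair, 0 of the 10 genes were called. The log2 fold change was then 0.09 for Eln, 0.12 for Fbln2 and -0.08 for Fbln5, each of the opposite sign to the value from all libraries.

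**Figure D3:**
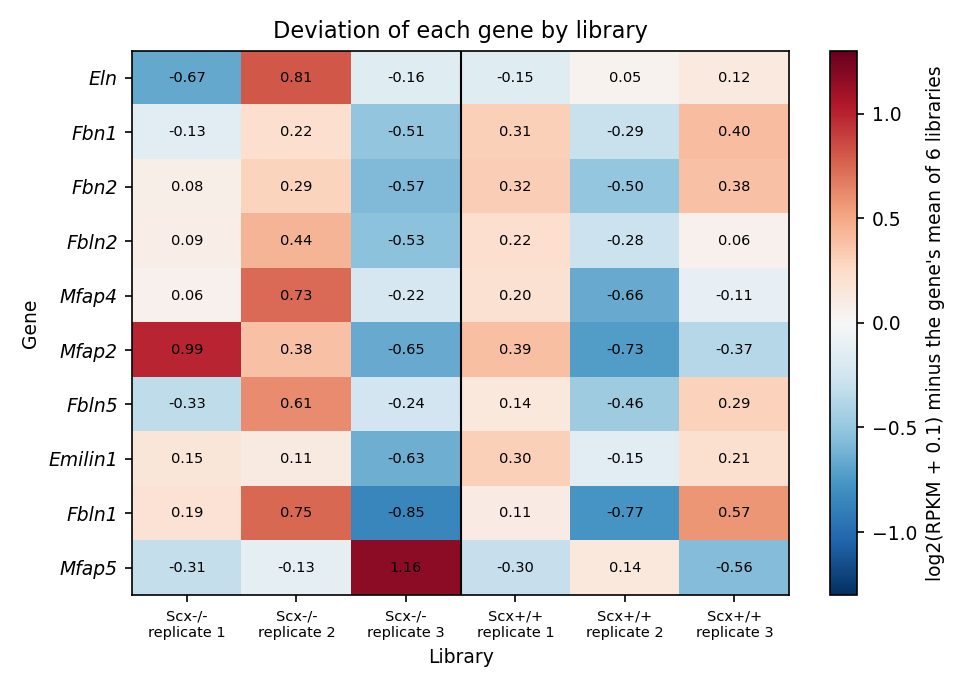
Log2(RPKM + 0.1) of each gene in each library minus the mean of the gene over all 6 libraries, with Scx-/- libraries left and Scx+/+ libraries right of the line, blue below and red above that mean. Scx-/- replicate 3 and Scx+/+ replicate 2 are blue for most genes, while Mfap5 is highest in those 2.

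By mean RPKM over the 6 libraries, a scale per length of exon, the genes ran from Eln at 27.8 ± 10.1 RPKM (SD, n = 6) through Fbn1 at 19.1, Fbn2 at 16.3, Fbln2 at 13.2, Mfap4 at 9.88, Mfap2 at 6.04, Fbln5 at 5.62, Emilin1 at 5.13 and Fbln1 at 3.66 to Mfap5 at 2.12 RPKM. The ranges of every pair of neighbours in that order overlapped across the libraries. Within a library the order was steadier. Fbn1 was above Fbn2, Fbn2 above Fbln2 and Fbln2 above Mfap4 in 6 of 6 libraries, so that Fbn2 held rank 3 and Fbln2 rank 4 in each. Eln was first in 5 of 6 libraries, and Fbn1 led in Scx-/- replicate 1, at 17.0 against 16.6 RPKM. Mfap2 was above Fbln5 in 2 libraries and Fbln5 above Emilin1 in 3, so these 3 genes had no fixed order.

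The place of Fbn1 depends on the gene model. On the opposite strand to Fbn1 (mm9 chr2:125126330-125333729, minus strand), Gm9913 shares 2442 of the 12128 annotated exon bases of Fbn1, and Gm9913 had 56 to 86 reads a library. With those bases and those reads left out of Fbn1, its mean became 23.8 RPKM, and Eln was above Fbn1 in 3 rather than 5 of 6 libraries. Eln (chr5:135179651-135223111, minus strand) was counted over 2583 bases in 37 exons, a gene model without UTRs. Mfap4 shares 89 exon bases with Mapk7 on the opposite strand, which was at 0.24 to 1.24 RPKM, and the counting is not stated to use strand.

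Eln made up 16.6% to 31.8% of the summed RPKM of the 10 genes and had the widest range of shares. The fibrillins kept nearer to each other. Fbn2 was at 0.978, 0.888 and 0.812 of the level of Fbn1 in Scx-/- libraries and at 0.849, 0.727 and 0.833 in Scx+/+ libraries, a log2 difference of 0.15 between genotypes (exact permutation test, two-sided p = 0.3). With 3 against 3 libraries that test cannot give a p below 0.1. For the ratio of Eln to Fbn1, elastin against its scaffold, the values were 0.98, 2.14 and 1.82 in Scx-/- and 1.03, 1.79 and 1.17 in Scx+/+. Replicate 1 of both genotypes was near 1 and replicate 2 of both was the highest. The genotypes differed by 0.27 on the log2 scale (exact permutation p = 0.7). Both ratios count Fbn1 over all its annotated exon bases. In every library they would be lower with the bases shared with Gm9913 left out of Fbn1.

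The ratio between the MAGP genes moved most. Mfap5 was at 0.140, 0.246 and 1.29 of the level of Mfap2 in Scx-/- libraries and at 0.216, 0.651 and 0.303 in Scx+/+, a range of 9.17 times. Mfap5 exceeded Mfap2 in Scx-/- replicate 3 alone, and the log2 difference between genotypes was 0.02 (exact permutation p = 1). The log2 difference was -0.06 for Fbln2 to Fbln1 (exact permutation p = 0.9) and 0.03 for Fbln5 to Eln (exact permutation p = 0.9). Over the 5 ratios compared, none reached the smallest p possible.

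**Figure D4:**
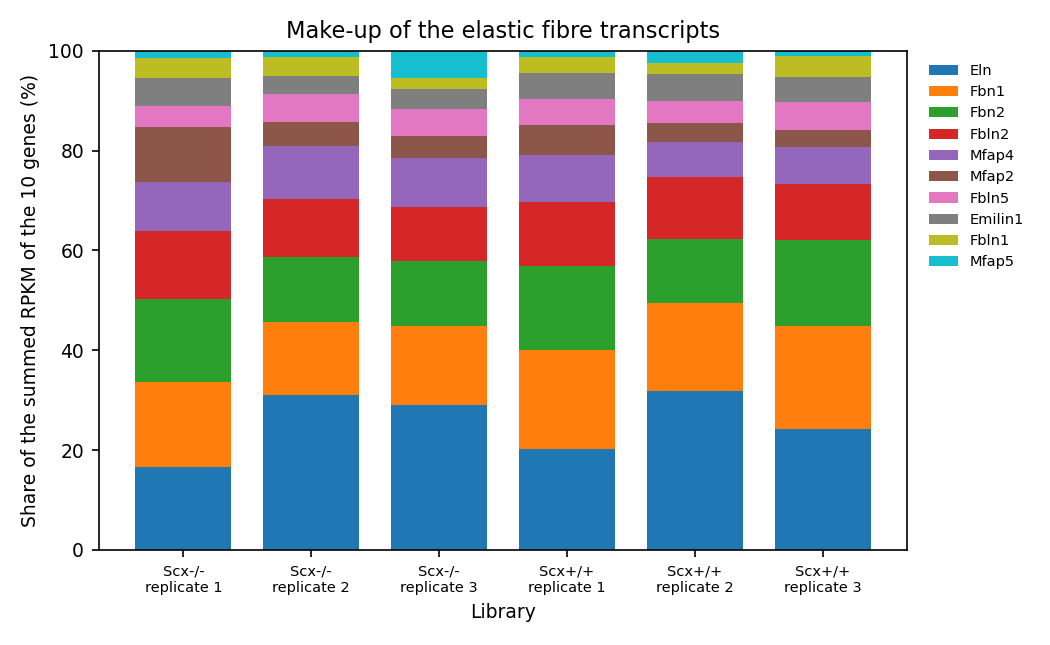
Share of the summed RPKM of the 10 genes held by each gene, as stacked bars in percent for each library. Eln holds 16.6% in Scx-/- replicate 1 and 31.8% in Scx+/+ replicate 2, and the Mfap5 share is widest in Scx-/- replicate 3.

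Eln varied enough over the libraries for a search of genes with a like pattern. By the root mean square difference of centred log2 values over the 6 libraries, the 5 nearest of 13826 genes were Panx1, Gm13477, Bmper, Yy2 and Adamts2, at 0.083, 0.102, 0.129, 0.146 and 0.157 log2 units. Panx1 was at 1.23, 3.05 and 1.59 RPKM in Scx-/- and at 1.67, 1.88 and 1.84 RPKM in Scx+/+, with Scx-/- replicate 2 highest. It was picked for its likeness to Eln over these same libraries, so a shared peak follows from the choice. The nearest elastic fibre gene was Fbln5, at rank 86 and 0.298 log2 units, and the farthest was Mfap2, at rank 12614.

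Of 40 further genes of elastic fibre biology, 34 were measured, under 35 identifiers. One was called, against 3.89% of all genes, and 3 did not overlap between genotypes, against 9.5% of all genes. The median log2 fold change was -0.01, against 0.10 for all genes. Fbln7, Loxl4, Adamtsl4, Elane, Mmp12 and Mmp9 were not analysed here.

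Efemp1, which encodes fibulin-3, was the gene called. It was at 2.10, 2.45 and 3.30 RPKM in Scx-/- and at 1.91, 1.35 and 1.15 RPKM in Scx+/+ libraries, and every Scx-/- library was above every Scx+/+ library. The log2 fold change was 0.80 (SE 0.32, 95% interval 0.08 to 1.51), past the unadjusted threshold of 0.05 in limma, with an adjusted p = 0.967. The call was lost in 10 of 18 alternative fits, with log2 fold changes of 0.55 to 0.99 over all 18, and among them with the length and GC trend removed and when Scx-/- replicate 2 or 3 or Scx+/+ replicate 2 or 3 was left out (log2 fold changes 0.58, 0.83, 0.62, 0.76 and 0.65). The summed level of the epicardium markers given above was also higher in Scx-/-, though Wt1, Tbx18, Upk3b, Msln and Krt19 each overlapped between genotypes. Any part of epicardium cells in the levels of Efemp1 and Dcn was not tested. The list of Efemp1, of fibulin and EMILIN relatives, had 1 of 7 measured genes called, Efemp1 itself, against 3.89% of all genes called in either direction. Efemp2, fibulin-4, which is needed for crosslinking of elastin, was at 3.67, 6.01 and 3.18 RPKM in Scx-/- and at 3.63, 1.92 and 3.66 RPKM in Scx+/+ (limma, adjusted p = 0.967).

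None of the 4 measured lysyl oxidases was called in limma. Loxl1, the oxidase tied to elastin, was at 1.23, 1.59 and 1.46 RPKM in Scx-/- and at 1.91, 1.97 and 1.85 RPKM in Scx+/+. All Scx-/- libraries lay below all Scx+/+ libraries, where 9.5% of all genes did not overlap in either direction. The log2 fold change of -0.40 (SE 0.28, 95% interval -1.04 to 0.23) did not pass the test (limma, adjusted p = 0.967). It was called in 2 of 18 alternative fits, both without moderated variances. Lox was at 7.17 to 11.8 RPKM in Scx-/- and 7.83 to 8.73 RPKM in Scx+/+, and Loxl2, the most abundant of the 4, at 20.1 to 32.7 and 20.3 to 30.0 RPKM.

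The latent TGF-beta binding proteins, which share the domain make-up of fibrillins, had 0 of 4 genes called. All 4 had a log2 fold change below 0, with a median of -0.34. Ltbp3 had the smallest p of the list, at 1.23, 1.71 and 1.04 RPKM in Scx-/- and 1.69, 1.84 and 2.16 RPKM in Scx+/+ (log2 fold change -0.51, SE 0.31, limma, adjusted p = 0.967). The highest Scx-/- library was just above the lowest Scx+/+ library. Of the microfibril-associated ADAMTS and ADAMTS-like genes, 0 of 6 were called, and the smallest p was that of Adamts10, a protease that binds fibrillin-1. It was at 1.95, 2.70 and 1.72 RPKM in Scx-/- and at 2.10, 0.60 and 1.64 RPKM in Scx+/+ (log2 fold change 0.66, SE 0.45, limma, adjusted p = 0.967). Scx+/+ replicate 2 was the low library there.

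Other assembly genes, which include the copper pump Atp7a, the elastin receptor complex genes Glb1, Ctsa and Neu1 and the proteoglycan genes Vcan, Bgn and Dcn, had 0 of 9 identifiers called. Dcn, decorin, was at 148.5, 169.7 and 172.4 RPKM in Scx-/- and at 113.2, 146.7 and 113.4 RPKM in Scx+/+. The genotypes did not overlap, which held for 9.5% of all genes. For Dcn the log2 fold change was 0.40 (SE 0.18, 95% interval -0.01 to 0.81, limma, adjusted p = 0.967). Dcn was called in 6 of 18 alternative fits, among them without Scx-/- replicate 1 or without Scx+/+ replicate 2, and its log2 fold change dropped to 0.17 with the length and GC trend removed. Elastolytic proteases had 0 of 5 genes called, all with a log2 fold change above 0 and a median of 0.28, where 11996 of all 18810 genes were above 0. Ctss, cathepsin S of macrophages, had the smallest p of that list, at 9.36, 10.5 and 9.12 RPKM in Scx-/- and 8.11, 9.25 and 6.64 RPKM in Scx+/+ (limma, adjusted p = 0.967). With the length and GC trend removed its log2 fold change was 0.07 rather than 0.28. The summed level of 6 macrophage markers, mostly Lyz2, was 28.8 to 46.9 RPKM in Scx-/- and 36.4 to 38.9 RPKM in Scx+/+. Of the 6, Cd68 alone was called, higher in Scx-/-, against 3.89% of all genes called in either direction. It was at 0.639, 1.54 and 0.812 RPKM in Scx-/- and 0.358, 0.0949 and 0.476 RPKM in Scx+/+, the lowest being the fill-in value. The part of macrophages in the Ctss level was not tested.

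The pair of libraries that was low for most elastic fibre genes was also lowest for 14 of the 35 other identifiers. The 14 were Efemp2, Hmcn1, Mmrn1, Ltbp1, Loxl2, Adamts17, Fkbp10, 1 of the 2 Glb1 identifiers, Ctsa, Neu1, Vcan, Bgn, Mmp2 and Mmp14. Vcan, the versican core protein of cushion matrix, was at 24.9 and 21.2 RPKM in that pair and at 34.7 to 44.7 RPKM in the other 4 libraries. The pair was highest for Adamtsl3 alone.

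**Figure D5:**
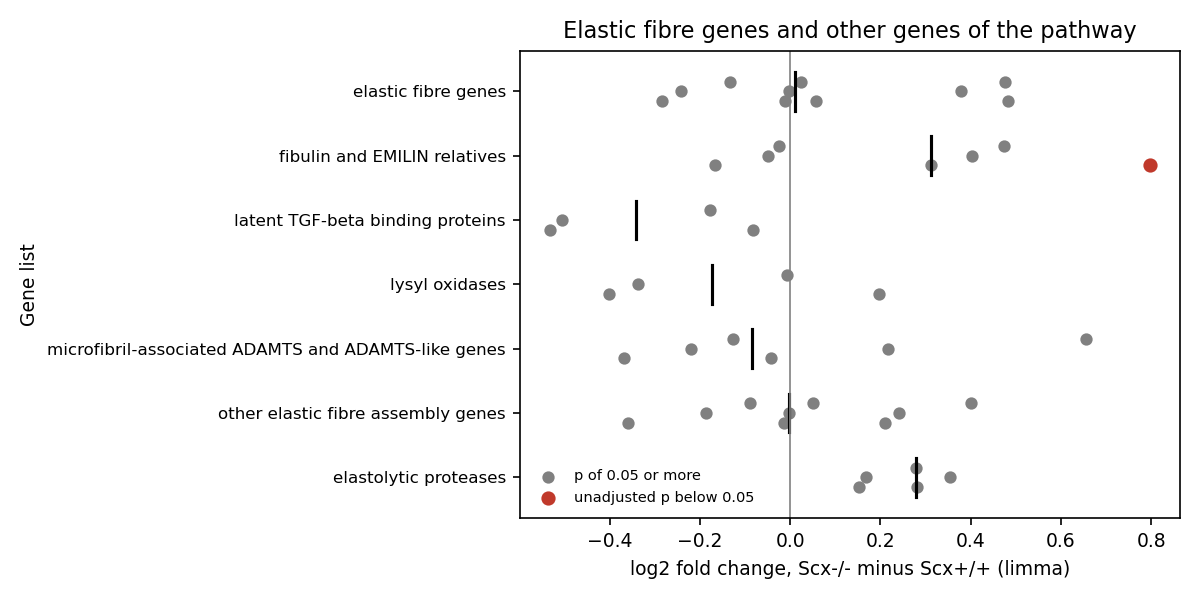
Log2 fold change, Scx-/- minus Scx+/+, of every measured gene in the 7 lists, with the elastic fibre genes on top, grey points for genes not called, a red point for the gene called at an unadjusted p below 0.05 and black bars for list medians. Efemp1, at 0.80, is the red point, and the medians run from -0.34 to 0.31.

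Scx belongs to a class of factors that bind DNA at E-boxes, the motif CANNTG, which reads the same class of letters on both strands. RefSeq promoter windows (GRCm38.p6) were at hand for 6 of the 10 genes, Fbn1, Fbln1, Fbln2, Fbln5, Emilin1 and Mfap2. The 250 bases before the first listed start held CANNTG in 4 of these 6, against 66.2% of all 32851 windows. Of the 7 genes that were lowest in the same 2 libraries, 5 had a window, and the first window held an E-box in 3 of the 5, a share near that of all windows. These 3 windows, of Fbln1, Fbln2 and Emilin1, were picked because they hold the motif and are given with each E-box in capitals and the position counted back from the start.
Fbln1, chr15:85205699-85205948, plus strand: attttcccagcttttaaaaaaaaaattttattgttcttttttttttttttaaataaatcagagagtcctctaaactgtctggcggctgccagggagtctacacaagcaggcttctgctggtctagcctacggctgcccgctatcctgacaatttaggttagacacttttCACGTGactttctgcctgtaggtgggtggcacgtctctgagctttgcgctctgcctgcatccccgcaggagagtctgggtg
Fbln2, chr6:91212514-91212763, plus strand: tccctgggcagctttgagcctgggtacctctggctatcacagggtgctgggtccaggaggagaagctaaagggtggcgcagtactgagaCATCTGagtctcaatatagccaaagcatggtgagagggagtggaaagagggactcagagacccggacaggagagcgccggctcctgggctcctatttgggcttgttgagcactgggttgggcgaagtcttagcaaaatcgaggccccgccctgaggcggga
Emilin1, chr5:30913536-30913785, plus strand: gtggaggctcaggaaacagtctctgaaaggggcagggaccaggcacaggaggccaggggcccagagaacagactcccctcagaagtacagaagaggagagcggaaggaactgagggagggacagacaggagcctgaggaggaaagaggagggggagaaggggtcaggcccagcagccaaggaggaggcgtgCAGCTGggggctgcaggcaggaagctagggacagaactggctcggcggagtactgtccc

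The E-box was CACGTG at -81 in Fbln1, CATCTG at -161 in Fbln2 and CAGCTG at -59 in Emilin1, in the first listed window of each. The second window of Fbln1 held CACGTG at -140 and CAGCTG at -48, the latter the same letters as in Emilin1. Among all windows, 6.02% held CACGTG, 14.4% held CATCTG or CAGATG, its other strand, and 13% held CAGCTG. A match is a description of the letters and not a binding site, and none of these 3 genes differed between genotypes by the test. The only window of Fbn1 and the first of Mfap2 held no E-box, the second of Mfap2 held CATCTG at -60, and the first of Fbln5 held CAATTG.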

How the data were processed

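AVC regions of 3 Scx-/- and 3 Scx+/+ embryos were sequenced. The authors aligned reads to mm9 with TopHat 1.4.1, counted them over Ensembl exons with easyRNASeq, replaced low values by a fill-in value and deposited RPKM without counts. Gene names, exon lengths and coordinates were taken from GENCODE for mm9, with 18695 of 18810 identifiers found. Depth was solved so that RPKM times exon length gave whole reads, within 0.1 read, for at least 98.45% of values under 1000 reads, and no count test was run because the values are RPKM. Genotypes were compared with limma 3.58.1 (R 4.3.3) after taking log2(RPKM + 0.1), with an intensity trend, 3 against 3 libraries, no covariate and Benjamini-Hochberg adjustment over all 18810 genes. Calls used the threshold of the study, an unadjusted p below 0.05, but not its test, which was a one-way ANOVA. Here one-way ANOVA was run only as an alternative fit. Ratios were tested by exact permutation. Fold changes of low genes are understated by the pseudocount.

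The 10 genes, the lists and the tests were chosen with earlier results of these data known. Named were the 10 genes, of each list every gene called or not overlapping, or the gene with the smallest p, Scx and the 5 genes nearest to Eln. Lox, Loxl2, Efemp2, Vcan and marker genes were added after their values were seen. The source of each library is not labelled beyond its genotype and number, so p-values measure the spread between these libraries. Promoter sequences are RefSeq entries of GRCm38.p6. Alternatives were other pseudocounts (0.01 and 1), genes averaging 1 RPKM or more, no trend, one-way ANOVA, quantile and median scaling, removal of a length and GC trend, a replicate block and each library left out. Added after seeing the data were the fits without Scx-/- replicate 3 and Scx+/+ replicate 2, the fit of libraries numbered 1 and 3, and Fbn1 without the bases shared with Gm9913. The limma fit was tested on simulated data, with noise drawn independently for each library. Deviations shared between libraries were not simulated, so that test does not cover them.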

Additional observations from a re-analysis of the deposited data

How the results depend on the processing

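Over 18 alternatives to the fit described, 180 fits of the 10 genes kept the direction in 149 with the same side of the threshold, turned it in 30 and called 1, Fbn1 with libraries 1 and 3 alone (1 gene called). Fbn1, Mfap2 and Mfap5 kept their direction in all 18. Turned log2 fold changes were Eln 0.12 by ANOVA on RPKM, Fbln1 -0.028 by quantile scaling and -0.052 by median scaling, Fbln2 0.001 at pseudocount 1, 0.038 by ANOVA on RPKM and 0.042 with the length and GC trend removed, and Fbln5 -0.070, -0.087 and -0.045 by quantile scaling, median scaling and trend removal. Without Scx-/- replicate 3 and Scx+/+ replicate 2 they were 0.086 for Eln, 0.125 for Fbln2 and -0.075 for Fbln5. With libraries 1 and 3 alone they were -0.67 for Fbln1, -0.50 for Fbln5, -0.13 for Mfap4 and -0.017 for Adamts10. The cause of these turns was not tested.

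Leaving out 1 library at a time gave log2 fold changes of -0.42 to 0.32 for Eln, -0.42 to 0.12 for Fbn2, -0.31 to 0.50 for Fbln1, -0.22 to 0.26 for Fbln2, -0.28 to 0.19 for Fbln5, -0.38 to 0.011 for Emilin1, -0.50 to -0.10 for Fbn1, 0.10 to 0.92 for Mfap2, 0.11 to 0.58 for Mfap4 and 0.02 to 0.76 for Mfap5, with 0 of 10 called each time. Mfap2 was 0.10 without Scx-/- replicate 1 and 0.92 without Scx-/- replicate 3, and Fbn1 was -0.10 without Scx-/- replicate 3 and -0.50 without Scx+/+ replicate 2. Eln turned to 0.32 without Scx-/- replicate 1 and was -0.42 without Scx-/- replicate 2. The log2 difference of ratios ran from -0.91 to 0.69 for Mfap5 to Mfap2, -0.34 to 0.18 for Fbln2 to Fbln1 and -0.22 to 0.19 for Fbln5 to Eln. With the trend removed, Mfap5 to Mfap2 was -0.059 and Fbln2 to Fbln1 was 0.008. Without the pair of libraries Mfap5 to Mfap2 was -0.46 and Fbln5 to Eln was -0.16.

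Of the other pathway identifiers, 3 were called by ANOVA on log2 RPKM, 2 by ANOVA on RPKM, 0 with median scaling, 0 with the trend removed, 3 without the pair, 2 with libraries 1 and 3, and 0 to 2 with 1 library left out. Over all genes 539 to 1549 were called with 1 library left out, 1549 being without Scx+/+ replicate 2, 1587 without the pair and 1704 with libraries 1 and 3, against 731. Same-numbered libraries correlated at 0.092, -0.22 and -0.188 in their deviations, and Scx-/- replicate 3 with Scx+/+ replicate 2 at 0.32. These values show no pairing by number, but with 3 libraries a genotype they cannot exclude one. The replicate block called 0 of the 10 genes, 0 other pathway identifiers and 573 of all genes. Quantile scaling moved the median of all genes from 0.105 to 0.016. Precision was limited by 3 libraries a genotype, as the width of the intervals shows.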
